A study of Mus musculus with 4 samples.

Results

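Expression of 3 genes that guide monocytes and macrophages was measured in single-cell RNA libraries of the mouse colon: Ccr2, which encodes a chemokine receptor, Cx3cr1, which encodes the receptor for fractalkine, and Cx3cl1, which encodes fractalkine itself. They were chosen as a receptor pair and the ligand of one of them, were found by symbol, and all 3 were among the 32285 features of each library. CCR2 binds several monocyte chemoattractant chemokines, and inflammatory monocytes need it to leave the bone marrow and enter tissue. CX3CR1 binds CX3CL1, a chemokine that is made as a membrane-bound adhesion molecule and can be shed by proteases. In the gut, monocytes that mature into resident macrophages are known to lose CCR2 and keep or gain CX3CR1, so the pair of receptors is widely used to place a cell on that path.

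CD11b is an integrin found on most myeloid cells, and cells selected for it came from Csf2-/-:CX3CR1-GFP/+:CCR2-RFP/+ mice and from Csf2+/+:CX3CR1-GFP/+:CCR2-RFP/+ mice. Each genotype gave 1 library of solitary isolated lymphoid tissue (SILT, small lymphoid aggregates of the colon wall) and 1 of colon lamina propria, the connective tissue beneath the epithelium. Csf2 encodes GM-CSF, a growth factor for myeloid cells. All mice, controls included, carried 1 GFP allele at Cx3cr1 and 1 RFP allele at Ccr2, knock-ins that place a fluorescent reporter at the gene's own locus. The effect of these alleles on the counts of both receptor genes was not tested, and 0 features of the files carry a reporter's name. The design text gives 5 mice, pooling is not stated, and the tissue was taken at steady state. Age is not given in the sources used here. With 1 library per group, genotype, tissue and library cannot be told apart, no test was made, and all intervals below are 95% intervals for counting error only.

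After filtering, the SILT libraries held 2368 Csf2-/- and 7594 Csf2+/+ cells and the lamina propria libraries 1967 Csf2-/- and 4436 Csf2+/+ cells, with median depths of 5819.5 to 9959 unique molecular identifiers (UMIs) per cell. Csf2 had 0 UMIs in both Csf2-/- libraries, 24 in Csf2+/+ SILT and 2 in Csf2+/+ lamina propria. A count of 0 allows up to 0.145 counts per 1000000 UMIs (CPM) in Csf2-/- SILT and 0.160 CPM in Csf2-/- lamina propria, above the 0.0415 CPM of Csf2+/+ lamina propria, so the deletion could be checked at this depth in SILT but not in lamina propria. Each library held transcripts of both sexes, Xist and Ddx3y, but their levels differed between genotypes. Xist was higher in the Csf2-/- library of both tissues, with 582.1 against 265.4 CPM in SILT. Ddx3y was lower in Csf2-/- cells, with 31.76 against 38.40 CPM in SILT and 28.10 against 58.45 CPM in lamina propria. The mix of sexes may thus differ between genotypes, and its part in the genotype ratios below was not tested. Any 2 libraries shared 2 to 14 cell barcodes. Although the cells were selected for CD11b, 2885 of 16365 had an endothelial profile and 689 a B cell profile. Their levels are given below as background, with median depths of 7210 UMIs in endothelial-like and 3351 in B cell-like cells, against 7539 in monocyte-like and 10144 in macrophage-like cells.

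The 3 promoters are shown because the expression patterns described below differ in kind between the genes. The windows run from 250 bases before to 50 bases after the RefSeq start on GRCm38.p6, 5′ to 3′ on the gene's strand. Capitals mark matches on either strand to 3 motifs. The first, TATAAA, is the sequence of the TATA box, a core promoter element. The second, GAGGAA, is a longer form of the ETS family core GGAA, of the kind bound by the myeloid factor PU.1. GGAA alone was not searched, and other matches to it are not marked. The third is the RUNX family core, searched as TGTGGT. The Ccr2 window is chr9:124101933-124102232 on the plus strand, that of Cx3cr1 is chr9:120068247-120068546 on the minus strand and that of Cx3cl1 is chr8:94771930-94772229 on the plus strand.
Ccr2: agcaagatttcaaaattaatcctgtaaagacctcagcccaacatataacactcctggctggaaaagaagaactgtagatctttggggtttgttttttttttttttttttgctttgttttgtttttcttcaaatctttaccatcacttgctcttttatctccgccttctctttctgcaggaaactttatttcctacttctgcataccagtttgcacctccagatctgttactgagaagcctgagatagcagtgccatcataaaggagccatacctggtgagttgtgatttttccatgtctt
Cx3cr1: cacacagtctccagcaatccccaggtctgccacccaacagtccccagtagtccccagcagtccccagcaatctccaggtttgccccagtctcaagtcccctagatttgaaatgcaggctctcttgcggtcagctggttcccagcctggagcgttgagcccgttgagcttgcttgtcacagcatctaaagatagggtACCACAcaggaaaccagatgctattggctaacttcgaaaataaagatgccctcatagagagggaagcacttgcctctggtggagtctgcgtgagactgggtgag
Cx3cl1: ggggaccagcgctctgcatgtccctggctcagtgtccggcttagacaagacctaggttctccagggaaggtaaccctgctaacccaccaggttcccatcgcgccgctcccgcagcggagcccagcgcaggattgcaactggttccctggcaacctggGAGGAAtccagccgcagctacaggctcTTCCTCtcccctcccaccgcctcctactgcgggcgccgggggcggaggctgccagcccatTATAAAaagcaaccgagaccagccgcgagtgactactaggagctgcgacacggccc
The Cx3cl1 window held TATAAA on its own strand, first base at -6 from the start. It held GAGGAA at -93 on its own strand and at -66 on the opposite strand. The Cx3cr1 window held the RUNX core on the opposite strand at -54, and the Ccr2 window held none of the 3 motifs. Of 32851 RefSeq promoter windows of this length, 13.6% held TATAAA, 28.3% GAGGAA and 16.8% the RUNX core, and a match is only a match of letters. In the GENCODE annotation of GRCm38, Ccr2 (ENSMUSG00000049103) spans chr9:124101950-124113557, Cx3cr1 (ENSMUSG00000052336) chr9:119901616-120069879 and Cx3cl1 (ENSMUSG00000031778) chr8:94772009-94782427. The annotated Cx3cr1 span overlaps 3 genes on its own strand and 6 on the other, and its counts are uncertain to the extent that reads were shared with them. Of 6758 Ccr2 transcript words of 50 bases, 129 also occur in other genes, but 0 of the 1720 words near the 3′ ends do. For Cx3cr1 12 of 4453 words are shared, and 12 of the 902 near the 3′ ends are, whereas 0 of 4024 Cx3cl1 words are shared. The RefSeq starts of the windows differ from the GENCODE gene starts.

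Ccr2 was highest in monocyte-like cells and in an unnamed cluster led by Retnla, Lpl and Fn1, and low in macrophage-like cells led by Lyve1. Levels are UMIs of the gene per 1000000 UMIs of the class (CPM). In the main monocyte-like cluster, led by Chil3, Hp and Plac8 (1029 cells), Ccr2 had 694 CPM in Csf2-/- and 718 in Csf2+/+ cells of SILT, and 839 in Csf2-/- and 943 in Csf2+/+ cells of lamina propria. The Retnla Lpl cluster (173 cells) reached 770 CPM in Csf2+/+ SILT (interval 703 to 841) and 838 in Csf2+/+ lamina propria (796 to 882), inside the range of the Chil3 Hp cluster, and had under 20 cells in each Csf2-/- library. The 2 clusters could therefore not be ordered. Together with the cluster described next and the type 2 dendritic cells, the Chil3 Hp cluster accounted for most Ccr2 transcripts: its 6.29% of cells held 26.96% of all Ccr2 UMIs.

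A further cluster of 868 cells was led by Ccl4, Ccl3, Cd14, Ccr2 and Il1b. It had markers of both monocytes and macrophages, and a rule added after seeing the clusters left it unnamed. Ccr2 there had 523 CPM in Csf2-/- and 490.4 in Csf2+/+ cells of SILT, and 536 in Csf2-/- and 628 in Csf2+/+ cells of lamina propria, below the Chil3 Hp cluster in each of the 4 libraries. A small second monocyte-like cluster, led by Adgre4, Itgal, Treml4 and Spn (144 cells), genes of the patrolling monocyte, had 171 CPM in Csf2-/- and 155 in Csf2+/+ cells of SILT, and 227 in Csf2-/- and 107 in Csf2+/+ cells of lamina propria. Its Ccr2 was lower than in the Chil3 Hp cluster in every library, and the intervals did not overlap.

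Macrophage-like cells fell into 3 clusters. Those led by Mmp13 and H2-M2 (601 cells) had Ccr2 at 64.7 CPM in Csf2-/- and 82.5 in Csf2+/+ cells of SILT, and 75.0 in Csf2-/- and 145 in Csf2+/+ cells of lamina propria. Those led by Lyve1 and Folr2, genes of perivascular and other long-lived macrophages (1805 cells), had 24.2, 19.1, 20.5 and 28.3 CPM in the same libraries. The smallest, led by C4b, Retnla and Timd4 (61 cells), had 15.99 CPM over all libraries (7.67 to 29.4). That interval held the 24.7 CPM of the Lyve1 cluster over all libraries, so these clusters were not shown to differ in Ccr2. For comparison, Ccr2 had 2.27 CPM in endothelial-like cells (1.71 to 2.96) and 56.2 CPM in B cell-like cells (47.7 to 65.8). UMIs of B cell-like cells were uneven, up to 13 in 1 cell, and 6.24% of those cells had any. Plasma cell-like cells, with a median of 30164 UMIs, had 76.5 CPM (71.7 to 81.5), and 48.6% of them had a UMI, 12.9% after thinning. The Mmp13 level in Csf2-/- SILT (54.8 to 75.7) overlapped that of B cell-like cells and was not shown to lie above it. Of those Mmp13 cells 26.8% had a UMI, against 4.95% of B cell-like cells in that library. After thinning the shares were 9.58% (5.58 to 15.1) and 2.33% (0.283 to 8.15), with overlapping intervals. Whether B cell-like cells make Ccr2 themselves was not tested. The Lyve1 and Timd4 clusters thus lay above the endothelial-like level and below the B cell-like and plasma cell-like ones.

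Cx3cr1 was highest in the Mmp13 macrophage-like cluster, where it had 737 CPM in Csf2-/- and 572 in Csf2+/+ cells of SILT, and 779 in Csf2-/- and 778 in Csf2+/+ cells of lamina propria. The Ccl4 Ccl3 cluster followed with 482, 396, 710.3 and 651 CPM in the same order, lower than the Mmp13 cluster within every library although the ranges overlap. The Lyve1 cluster had 416, 328, 499 and 356 CPM. The Chil3 Hp monocyte-like cells had 363, 255, 512 and 432 CPM, and the Adgre4 cells 304, 320.4, 353 and 444 CPM. These 3 clusters changed order from library to library and could not be ranked. The Retnla Lpl cluster, high in Ccr2, had 124 CPM of Cx3cr1 over all libraries, against 387 CPM in the Chil3 Hp cluster.

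Cx3cr1 was close to background in the Timd4 macrophage-like cluster, with 28.8 CPM over all libraries (17.1 to 45.5), against 366 CPM in the Lyve1 cluster (357 to 375). Endothelial-like cells had 4.301 CPM (3.51 to 5.21) and B cell-like cells 23.4 CPM (17.98 to 29.8). TIM-4, the product of Timd4, marks macrophages that persist in the gut wall without replacement by monocytes. Of the Timd4 cells, 11.5% had any Cx3cr1 UMI, or 1.64% once every cell was thinned to 2000 UMIs. Thinning, a random draw of UMIs without replacement, puts cells of different depth on 1 footing, and shallower cells are left out.

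**Figure D1:**
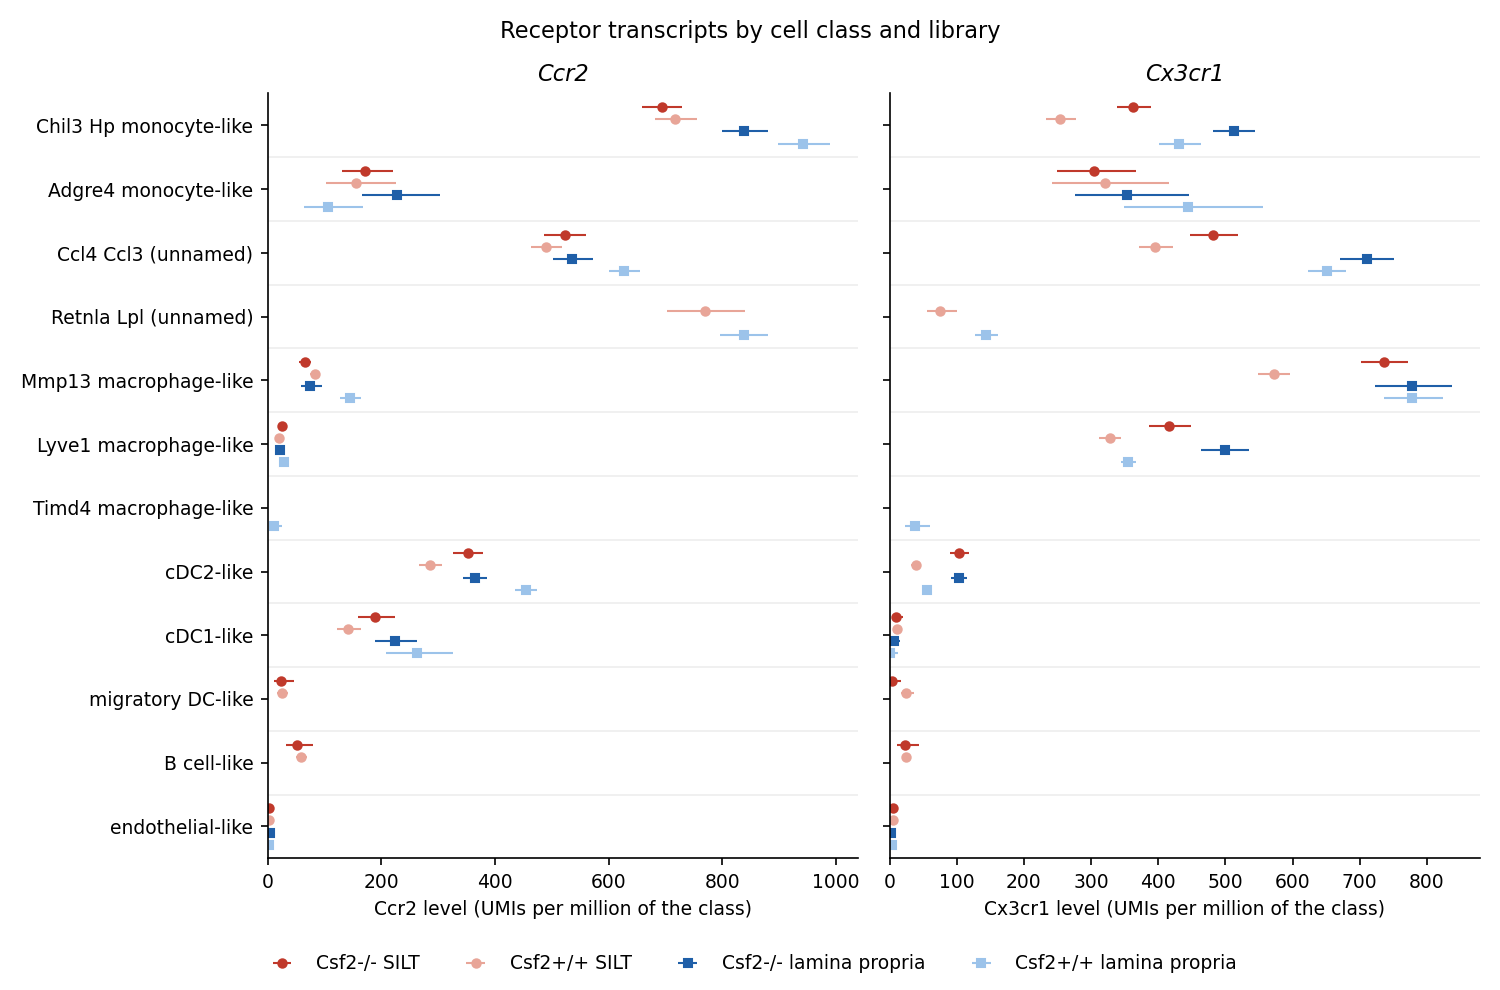
Levels of Ccr2 (left) and Cx3cr1 (right) in CPM, with the cell classes and clusters down the page; points are libraries with at least 20 cells of the class and bars are exact Poisson 95% intervals. Ccr2 is 694 or higher in all 4 libraries of the Chil3 Hp cluster and at most 28.3 in the Lyve1 cluster, whereas Cx3cr1 is highest in the Mmp13 cluster.

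The dendritic cells differed from each other in both receptors. Type 2 conventional dendritic cells (cDC2-like, 1187 cells), which present antigen to CD4 T cells, had Ccr2 at 352 CPM in Csf2-/- and 286 in Csf2+/+ cells of SILT, and 365 in Csf2-/- and 454 in Csf2+/+ cells of lamina propria. Type 1 cells (cDC1-like, 199 cells), specialised in cross-presentation, had 189, 142, 223 and 263 CPM in the same libraries, lower than cDC2-like cells in each. Migratory dendritic cells, which carry antigen to lymph nodes (222 cells), had 23.7 CPM over all libraries (16.8 to 32.5), less than the B cell-like level. Cx3cr1 was 8.47 CPM in cDC1-like cells (5.48 to 12.5) and 21.2 CPM in migratory cells (14.7 to 29.6), both at or below the B cell-like level of 23.4 CPM. In cDC2-like cells it was 70.4 CPM (65.9 to 75.2), beside 63.8 CPM in plasma cell-like cells (59.4 to 68.4), 44.8% of which had a UMI, 9.39% after thinning.

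Another 3 clusters with dendritic or lymphoid-tissue genes were left unnamed. Cells led by Mgl2, Cd209a and Lyve1 (74 cells) had 260 CPM of Cx3cr1 and 165 CPM of Ccr2. Cells led by Il22ra2, the gene of a soluble IL-22 antagonist that dendritic cells make, formed a deep cluster of 47 cells and a shallow one of 1067 cells. Cx3cr1 was 267 CPM in the 47 cells (235 to 301) and 68.2 CPM in the shallow cluster (55.5 to 82.9). At their median depth of 17119 UMIs, 95.7% of the 47 cells had a Cx3cr1 UMI as found. After thinning to 2000 UMIs, 17 of the 47 had one. All but 5 of the 47 cells came from Csf2+/+ SILT. Ccr2 was 48.4 CPM in the 47 cells (35.6 to 64.4).

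Both receptor genes were most often found together in monocyte-like cells and in the Ccl4 Ccl3 cluster. Of 1109 monocyte-like cells thinned to 2000 UMIs, 33.0% had a UMI of both receptor genes (30.2 to 35.9), 32.6% of Ccr2 only, 15.96% of Cx3cr1 only and 18.5% of neither. Without thinning, 68.7% of 1173 cells had both. The Chil3 Hp cluster had both in 36.4% of thinned cells (74.6% as found), the Ccl4 Ccl3 cluster in 32.0% (75.6% as found) and the Adgre4 cluster in 9.86% (26.4% as found). The Retnla Lpl cluster had both in 11.2% of thinned cells (40.5% as found) and Ccr2 alone in 68.2%.

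In macrophage-like cells joint detection was rare. The Mmp13 cluster had both in 8.03% of thinned cells (5.98 to 10.5; 33.8% as found) and Cx3cr1 alone in 62.7%. The Lyve1 cluster had both in 1.21% (0.750 to 1.84; 5.26% as found) and Cx3cr1 alone in 39.0%. After thinning, 0 of 2828 endothelial-like cells had both (interval up to 0.130%), and B cell-like cells had both in 0.786% (0.256 to 1.83). The joint share of the Lyve1 cluster lay within the interval of B cell-like cells after thinning. As found, B cell-like cells had both in 2.32% (1.33 to 3.74), below the Lyve1 share (4.28 to 6.40), at medians of 3351 UMIs in B cell-like and 9007 in Lyve1 cells.

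In cDC2-like cells both genes were found in 5.66% of thinned cells (4.39 to 7.18; 27.6% as found), Ccr2 alone in 35.8% and Cx3cr1 alone in 4.87%. Plasma cell-like cells had both in 2.54% of thinned cells and 30.7% as found. Of 196 thinned cDC1-like cells 0 had both (interval up to 1.86%), and 29.6% had Ccr2 alone. As found, 6.03% of 199 cDC1-like cells had both (3.15 to 10.3). Within monocyte-like cells, detection of one receptor said little about the other: Ccr2 was found in 67.4% of cells with a Cx3cr1 UMI (63.3 to 71.3) and in 63.8% of cells without one (59.7 to 67.8). In cDC2-like cells the values were 53.8% (44.4 to 63.0) and 40.0% (36.9 to 43.1), and the intervals did not overlap. By library they did not overlap in Csf2-/- lamina propria (67.4% and 38.4%) and overlapped in the other 3, with 36.8% and 36.4% in Csf2+/+ SILT. The cDC2-like cells with both had a median of 11115 UMIs before thinning, against 10876 in the others.

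**Figure D2:**
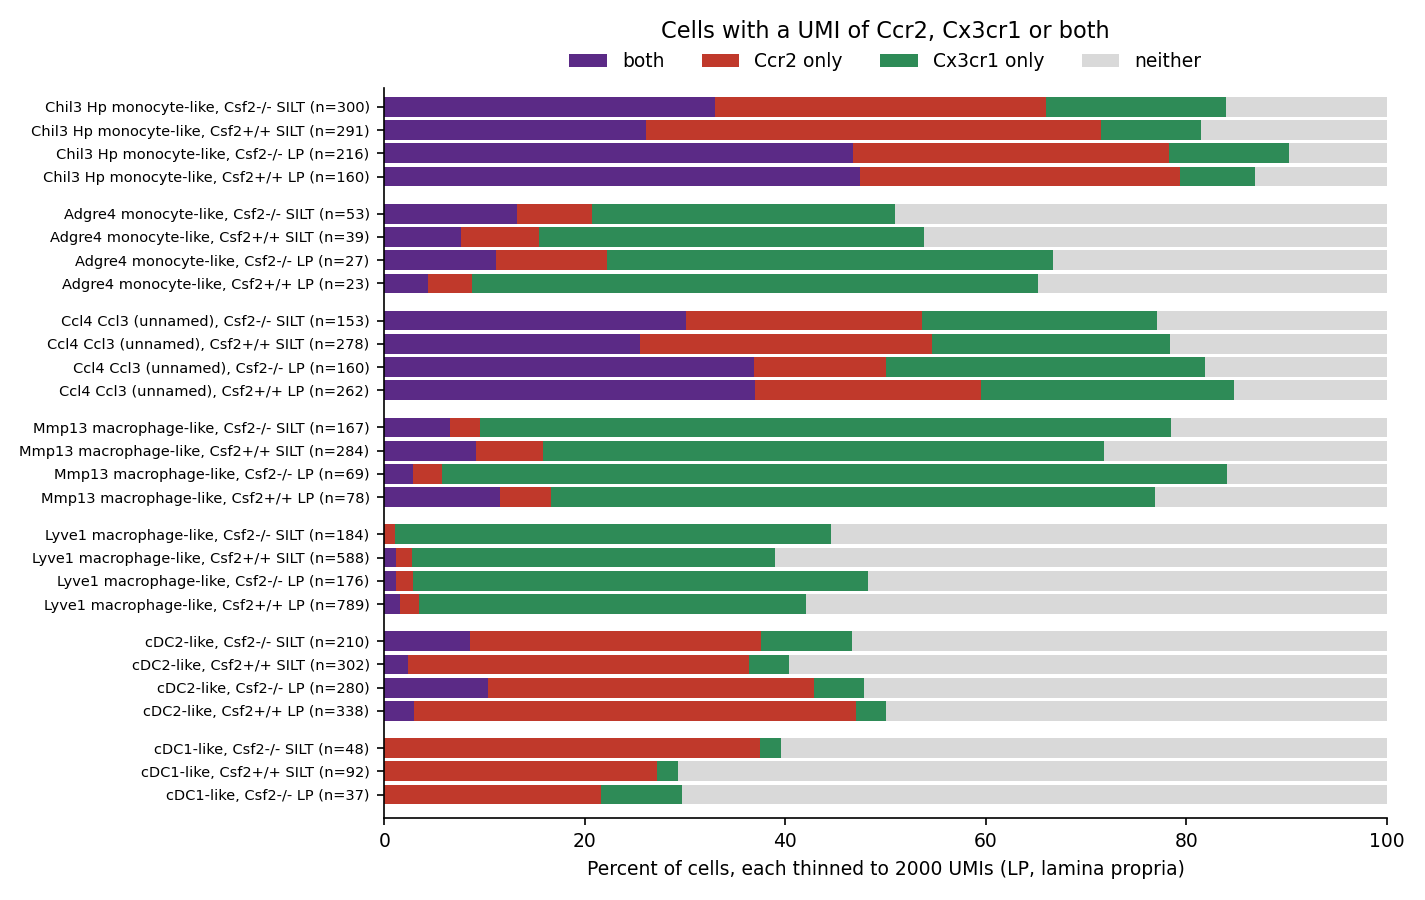
Percent of cells with a UMI of both receptor genes, Ccr2 only, Cx3cr1 only or neither, each cell thinned to 2000 UMIs, by cluster or class and library (n, cells; libraries with under 20 cells are not drawn). The share with both is largest in the Chil3 Hp and Ccl4 Ccl3 clusters and is 0 in cDC1-like cells.

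The 3640 monocyte-like and macrophage-like cells were ordered by the share of their UMIs from C1qa, C1qb and C1qc, complement genes of mature macrophages, and divided into 5 equal bins. The cells came from the named clusters, so the Ccl4 Ccl3 cluster was left out, and the lowest bin held monocyte-like cells alone. Over all libraries Ccr2 had 681, 457, 62.5, 35.2 and 30.1 CPM from the lowest to the highest bin. In Csf2+/+ lamina propria Ccr2 had 850.0, 319.5 and 52.3 CPM in the first 3 bins. In both Csf2-/- libraries its value was higher in the second bin than in the first, but the intervals overlapped. They were 510 to 582 and 560 to 650 in SILT, and 681 to 764 and 717 to 852 in lamina propria. Cx3cr1 had 369.5, 419.7, 424, 474.5 and 486.5 CPM over the same bins. By library it had 337 CPM in the lowest and 609.7 in the highest bin of Csf2-/- SILT, and 246 and 425 CPM in those of Csf2+/+ SILT. In lamina propria it had 466 and 603 CPM in Csf2-/- cells, and 412 and 493 CPM in Csf2+/+ cells. The pooled rise was not steady within each library. From the lowest to the highest bin, Csf2+/+ lamina propria had 412, 407, 381, 416 and 493 CPM, the last from 69 cells.

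The bins did not hold the same mixture in every library. In the second bin, monocyte-like cells made up 84.97% in Csf2-/- and 60.2% in Csf2+/+ cells of SILT, and 75.6% in Csf2-/- and 34.1% in Csf2+/+ cells of lamina propria, and Ccr2 there was 604, 431, 783 and 319.5 CPM. In the 3 upper bins, where at least 96.9% of cells of each library were macrophage-like, Cx3cr1 had 635, 597 and 609.7 CPM in Csf2-/- SILT, against 399, 438 and 425 CPM in Csf2+/+ SILT. In lamina propria it had 574, 592 and 603 CPM in Csf2-/- cells, against 381, 416 and 493 CPM in Csf2+/+ cells. Both Csf2-/- libraries were higher than the Csf2+/+ library of their tissue in all 3 bins. The intervals did not overlap, except in the highest bin of lamina propria (537 to 676 in Csf2-/- and 445 to 544 in Csf2+/+ cells). A bin is a range and not a cell type, and 1426 of the 3640 cells lay within 10% of a border. With the Ccl4 Ccl3 cluster added, a choice made after seeing the data, Ccr2 in the third bin was 159.6 CPM.

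**Figure D3:**
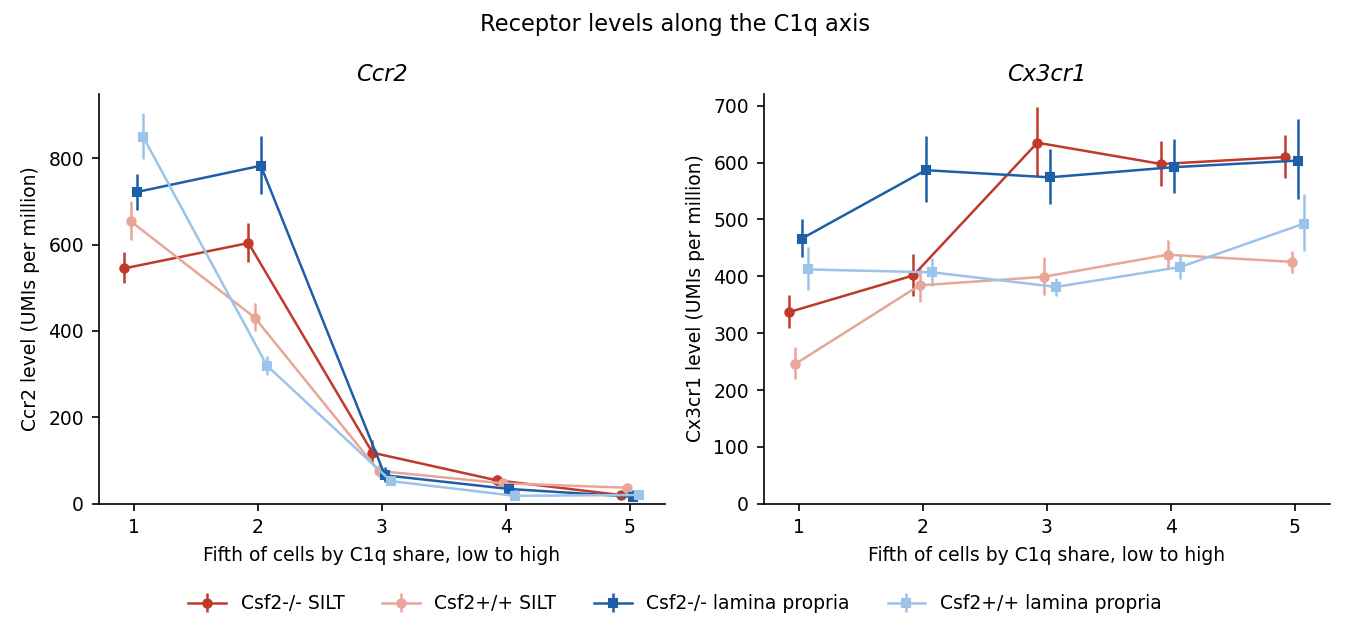
Levels of Ccr2 (left) and Cx3cr1 (right) in CPM over 5 bins of monocyte-like and macrophage-like cells ordered from low to high C1q share, 1 line per library, with exact Poisson 95% intervals. Ccr2 is lower in bin 3 than in bin 2 in all 4 libraries, and Cx3cr1 in bins 3 to 5 is higher in the Csf2-/- libraries.

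Csf2-/- cells had more Cx3cr1 than Csf2+/+ cells in most classes. In macrophage-like cells Cx3cr1 was 601 CPM in Csf2-/- SILT against 433 in Csf2+/+ SILT, a ratio of 1.39 (1.32 to 1.46), and 586 CPM in Csf2-/- lamina propria against 399 in Csf2+/+ lamina propria, a ratio of 1.47 (1.38 to 1.56). The makeup of the class differed: the Mmp13 cluster was 46.5% of macrophage-like cells in Csf2-/- SILT against 30.9% in Csf2+/+ SILT, and 26.2% in Csf2-/- lamina propria against 8.52% in Csf2+/+ lamina propria. Within the Lyve1 cluster the ratio was 1.27 in SILT (1.16 to 1.39) and 1.40 in lamina propria (1.30 to 1.52). Within the Mmp13 cluster it was 1.29 in SILT (1.21 to 1.37) and 1.0 in lamina propria (0.912 to 1.10). The larger ratio of whole macrophage-like cells in lamina propria was therefore not present in the Mmp13 cluster.

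In monocyte-like cells the Cx3cr1 ratio was 1.37 in SILT (1.23 to 1.52; 354.5 against 259.7 CPM) and 1.15 in lamina propria (1.05 to 1.26; 498 against 433 CPM). The Adgre4 cells had ratios below 1, 0.949 in SILT (0.682 to 1.33) and 0.796 in lamina propria (0.567 to 1.12), and both intervals included 1. The Ccl4 Ccl3 cluster had 1.22 in SILT (1.10 to 1.34) and 1.09 in lamina propria (1.02 to 1.17). Under a stricter filter on cells, 500 genes as the minimum and 5% mitochondrial UMIs as the maximum, the log2 ratio of monocyte-like cells in lamina propria was -0.11, against 0.20 here.

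In cDC2-like cells the level of Cx3cr1 was 103 CPM in Csf2-/- SILT against 39.0 in Csf2+/+ SILT, a ratio of 2.65 (2.09 to 3.37), and 103 CPM in Csf2-/- lamina propria against 55.5 in Csf2+/+ lamina propria, a ratio of 1.85 (1.57 to 2.19). In Csf2-/- SILT, 87 of 225 cells had a UMI, against 66 of 324 in Csf2+/+ SILT, and no cell had more than 10. In Csf2-/- lamina propria 111 of 291 cells had one, against 103 of 347 cells in Csf2+/+ lamina propria. Thinned to 2000 UMIs, 17.6% of Csf2-/- SILT cells had a Cx3cr1 UMI against 6.29% in Csf2+/+ SILT, and 15.4% in Csf2-/- lamina propria against 5.92% in Csf2+/+ lamina propria. Both genes together were found in 8.57% of thinned Csf2-/- SILT cells against 2.32% in Csf2+/+ SILT (32.0% against 17.0% as found), and in 10.4% in Csf2-/- lamina propria against 2.96% in Csf2+/+ lamina propria (36.1% against 27.7% as found).

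Cells that should lack the gene differed too. Plasma cell-like cells had Cx3cr1 at 81.2 CPM in Csf2-/- SILT against 53.5 in Csf2+/+ SILT, a ratio of 1.52 (1.27 to 1.80), and at 139.8 CPM in Csf2-/- lamina propria against 66.1 in Csf2+/+ lamina propria, a ratio of 2.11 (1.53 to 2.94), the last 2 from 20 and 33 cells. Thinned, 17.4% of plasma cell-like cells had a Cx3cr1 UMI in Csf2-/- SILT against 7.33% in Csf2+/+ SILT. B cell-like cells had 23.2 against 23.99 CPM in SILT, a ratio of 0.965 (0.419 to 1.97), and thinned shares of 5.81% against 2.76%. The part of free RNA in the cDC2-like values was not tested.

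Markers of neighbouring classes were summed in the same cDC2-like cells. The 11 monocyte markers together had 663 CPM in Csf2-/- SILT against 558 in Csf2+/+ SILT, and 449 CPM in Csf2-/- lamina propria against 365 in Csf2+/+ lamina propria. The 13 macrophage markers had 968 against 976 CPM in SILT and 963 against 1167 CPM in lamina propria, and the 9 cDC2 markers 3136 against 3289.8 CPM and 3317 against 3482 CPM. In cells with fewer than 2 C1q UMIs, the log2 ratio of Cx3cr1 was 1.71 in SILT and 0.74 in lamina propria. That limit kept cells with 1 C1q UMI, and it kept 72.9% of Csf2-/- and 56.5% of Csf2+/+ cells of SILT, and 71.1% of Csf2-/- and 36.6% of Csf2+/+ cells of lamina propria. The part of macrophage RNA was not tested. These divisions of the class were chosen after seeing the data. In cells with a Cd209a or Flt3 UMI, both dendritic markers, the log2 ratio was 1.40 in SILT and 0.82 in lamina propria, close to the 1.41 and 0.89 of all cDC2-like cells. With the 3 genes among those that made the clusters it was 1.01 and 0.44.

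Ccr2 did not differ in 1 direction between genotypes. In monocyte-like cells it was 621 CPM in Csf2-/- SILT against 674 in Csf2+/+ SILT, a ratio of 0.922 (0.858 to 0.989), and 784 CPM in Csf2-/- lamina propria against 869 in Csf2+/+ lamina propria, a ratio of 0.902 (0.842 to 0.965). In SILT the log2 ratio was -0.12, but 0.05 at a Leiden resolution of 0.5 and 0.02 with the Ccl4 Ccl3 cluster added, so its direction rests on the class border. In cDC2-like cells the ratio was 1.23 in SILT (1.11 to 1.36) and 0.802 in lamina propria (0.746 to 0.863), opposite directions in the 2 tissues. In the Mmp13 cluster it was 0.784 in SILT (0.643 to 0.952) and 0.519 in lamina propria (0.392 to 0.680). The Adgre4 cells had 1.11 in SILT (0.696 to 1.81) and 2.13 in lamina propria (1.21 to 3.92), from 45 Csf2-/- and 18 Csf2+/+ UMIs in lamina propria. Over whole macrophage-like cells, with 1.004 in SILT (0.843 to 1.19) and 0.928 in lamina propria (0.744 to 1.15), the intervals included 1.

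**Figure D4:**
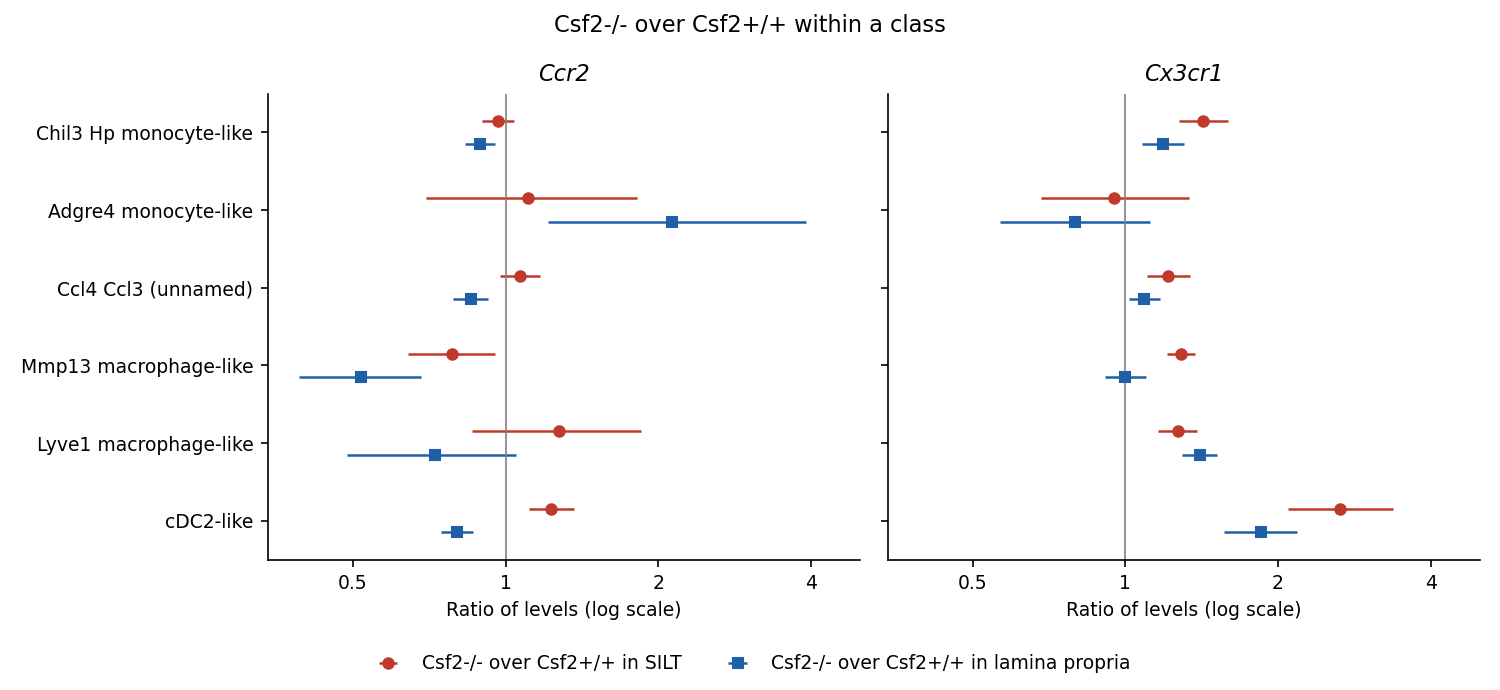
Ratio of the level in Csf2-/- cells to that in Csf2+/+ cells, on a log scale, for Ccr2 (left) and Cx3cr1 (right) in 6 clusters or classes, in SILT and in lamina propria, with conditional binomial 95% intervals. Cx3cr1 lies furthest above 1 in cDC2-like cells, at 2.65 in SILT and 1.85 in lamina propria, and Ccr2 has values on both sides of 1.

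Over all cells Ccr2 was 189 CPM in Csf2-/- SILT against 95.01 in Csf2+/+ SILT, a ratio of 1.99 (1.91 to 2.07), and 231 CPM in Csf2-/- lamina propria against 187 in Csf2+/+ lamina propria, a ratio of 1.24 (1.19 to 1.28). Cx3cr1 over all cells had ratios of 2.05 in SILT (1.98 to 2.13) and 1.28 in lamina propria (1.23 to 1.32). Monocyte-like cells were 16.6% of Csf2-/- SILT cells against 4.52% of Csf2+/+ SILT cells, and 12.5% of Csf2-/- lamina propria cells against 4.28% of Csf2+/+ lamina propria cells. The CD11b selection can set such shares, and their part in the whole-library ratios was not tested.

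Between tissues, Cx3cr1 of monocyte-like cells was lower in SILT than in lamina propria. It was 354.5 against 498 CPM in Csf2-/- cells, a ratio of 0.712 (0.652 to 0.779), and 259.7 against 433 CPM in Csf2+/+ cells, a ratio of 0.6001 (0.539 to 0.668). The Ccl4 Ccl3 cluster showed the same, with 0.678 in Csf2-/- cells (0.617 to 0.745) and 0.608 in Csf2+/+ cells (0.563 to 0.656). Ccr2 of monocyte-like cells was also lower in SILT, with ratios of 0.792 in Csf2-/- (0.739 to 0.848) and 0.775 in Csf2+/+ cells (0.722 to 0.832). In the Csf2+/+ comparison the median log2 ratio of all measured genes was itself -0.20 in monocyte-like cells, -0.23 in macrophage-like cells and -0.25 in the Ccl4 Ccl3 cluster. Relative to that shift the Cx3cr1 value of -0.74 in Csf2+/+ monocyte-like cells remained lower in SILT, and with TMM factors the Ccr2 value of -0.37 was -0.19. In macrophage-like cells the Cx3cr1 ratio was 1.02 in Csf2-/- (0.961 to 1.09) and 1.09 in Csf2+/+ cells (1.04 to 1.13). Within clusters it was below 1 in both genotypes, at 0.835 (0.753 to 0.925) in Csf2-/- and 0.922 (0.869 to 0.978) in Csf2+/+ cells of the Lyve1 cluster. In the Mmp13 cluster it was 0.946 in Csf2-/- cells, with an interval that included 1 (0.867 to 1.03), and 0.735 (0.686 to 0.788) in Csf2+/+ cells. Relative to the median shift of all Csf2+/+ macrophage-like cells (-0.23), the Lyve1 ratio of 0.922 was not lower in SILT, and the Mmp13 ratio of 0.735 was lower. That shift is of the whole class. The median shift within each cluster was not computed, so neither ratio could be set against the shift of its own cluster. In Csf2+/+ mice the Mmp13 cluster was 30.9% of macrophage-like cells in SILT against 8.52% in lamina propria.

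Cx3cl1, the ligand gene, had its highest level in cells with little of its receptor gene. It was detected mainly in endothelial-like cells, at 36.66 CPM in Csf2-/- and 29.7 in Csf2+/+ cells of SILT, and 36.65 in Csf2-/- and 37.3 in Csf2+/+ cells of lamina propria. The main endothelial-like cluster, 13.4% of cells, held 40.8% of all Cx3cl1 UMIs. Endothelial-like cells led by Sema3g and Fbln5, genes of arterial endothelium (372 cells), had 45.9 CPM over all libraries (37.6 to 55.5), the main cluster 33.9 (31.3 to 36.6) and cells led by Car4 and Apln, genes of capillaries, 31.6 (24.8 to 39.7). Cells led by Ackr1 and Madcam1, genes of venules (105 cells), had 9.94 CPM, from 11 UMIs. An unnamed cluster with pericyte gene Rgs5 and endothelial markers had 22.7 CPM (20.5 to 25.1). With 7.62% of cells, it held 24.95% of all Cx3cl1 UMIs. Epithelial-like cells had 10.8 CPM (8.61 to 13.5). Monocyte-like cells had 3 UMIs in all, or 0.337 CPM, and macrophage-like cells 25, or 0.902 CPM (0.584 to 1.33). Detection was shallow: 21.7% of endothelial-like cells had a Cx3cl1 UMI, and 6.93% after thinning.

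For Cx3cl1 in endothelial-like cells the interval of the genotype ratio included 1 in both tissues. The Csf2-/- over Csf2+/+ ratio was 1.24 in SILT (0.971 to 1.56) and 0.981 in lamina propria (0.763 to 1.25). The ratio of SILT over lamina propria was 1.0 in Csf2-/- cells (0.739 to 1.36) and 0.795 in Csf2+/+ cells (0.678 to 0.932). The Sema3g cluster in Csf2+/+ cells, at 44.7 CPM in SILT against 44.9 in lamina propria, had 0.994 (0.590 to 1.73). Markers of red cells differed in the same cells, with 922 CPM in Csf2-/- SILT against 1161 in Csf2+/+ SILT, and 5964 CPM in Csf2-/- lamina propria against 1924 in Csf2+/+ lamina propria. Their part in the Cx3cl1 values was not tested.

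**Figure D5:**
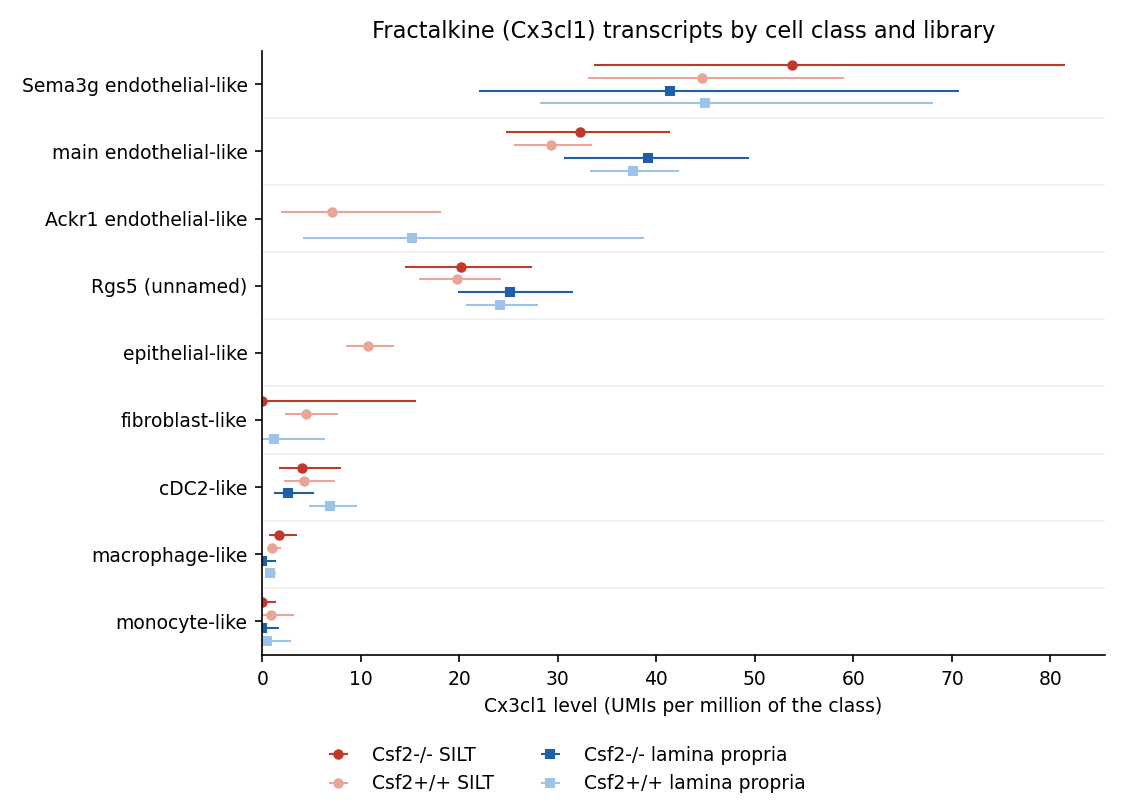
Level of Cx3cl1 in CPM, by class and library, with exact Poisson 95% intervals (libraries with under 20 cells of the class are not drawn). The Sema3g and main endothelial-like clusters are highest, and monocyte-like and macrophage-like cells are near 0.

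Genes with the pattern most like each member were ranked by Pearson r of log2(CPM + 1) over 77 points, each a cluster in a library with at least 30 cells, from 29 clusters named or not, among 11069 genes. The points share libraries and depth, and the r values are a description. Ccr2 was most like Atp8b4 (r = 0.92), Ifi209, Emb, Gpr132 and Gpr141 (r = 0.90). Cx3cr1 was most like Clec4a1 (r = 0.94), Lair1, Csf1r, Clec4a3 and Clec4a2 (r = 0.92); Clec4a1, Clec4a2 and Clec4a3 encode C-type lectin receptors, Lair1 an inhibitory collagen receptor and Csf1r the receptor that macrophages need to survive. Cx3cl1 was most like Bend7 (r = 0.88), Tdrp, Rapgef4, Dll1 and Thrsp (r = 0.85). Dll1 encodes a Notch ligand. Between the members, r was 0.77 for Ccr2 with Cx3cr1, -0.56 for Ccr2 with Cx3cl1 and -0.67 for Cx3cr1 with Cx3cl1.

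Other genes of the 2 receptor pathways were counted in lists by role. A gene is called where its ratio is at least 1.5-fold with an interval clear of 1, among genes with at least 30 UMIs over the 2 libraries. In monocyte-like cells of SILT, 10.1% of 8225 genes were called higher in Csf2-/- cells and 3.19% lower. Of 4 measured chemokine receptors, Cxcr4, the receptor that retains cells in bone marrow, was higher (200.1 against 98.7 CPM, 2.03-fold) and Ccr1 (ratio 0.501) and Ccrl2 (0.593) were lower. Of 17 genes of receptor signalling, 3 were higher and 1 lower, with Grk3, a kinase that desensitises chemokine receptors, at 192 against 85.7 CPM (2.25-fold). In lamina propria, where 3.04% of 8153 genes were called higher and 5.19% lower, Cxcr4 was again higher (207 against 109 CPM, 1.90-fold) and Ccr1 lower (ratio 0.445). Among the CCR2 ligand genes measured there, Ccl2 (0.617) and Ccl7 (0.437) were both lower in Csf2-/- cells, and in SILT neither was called.

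Classical monocyte genes gave mixed counts in monocyte-like cells. Of 10 measured, 2 were called higher and 2 lower in Csf2-/- SILT, and 0 higher and 3 lower in Csf2-/- lamina propria. Vcan, which encodes the matrix proteoglycan versican, was lower in both tissues (ratio 0.618 in SILT and 0.361 in lamina propria). Of 10 patrolling monocyte genes, 3 were higher and 0 lower in SILT, Pou2f2 (1.81), Spn (1.67) and Ace (1.57), and 1 was higher and 2 lower in lamina propria. The median log2 ratio of that list was 0.49 in SILT, beside 0.09 over all genes, and 0.09 in lamina propria, beside -0.02 over all genes.

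Macrophage-like cells shared part of this. The lists were read in the whole class and not within its clusters. The Mmp13 cluster made up more of the class in Csf2-/- cells, 46.5% against 30.9% in SILT and 26.2% against 8.52% in lamina propria. The part of this makeup in the values below was not tested. In SILT 6.79% of 10731 genes were called higher in Csf2-/- cells and 4.41% lower, and in lamina propria 5.25% of 10959 genes higher and 7.40% lower. Cxcr4 was higher in both tissues (2.89-fold in SILT and 2.97-fold in lamina propria), Grk3 too (2.63-fold and 1.90-fold), and Ccr1 lower (ratio 0.593 and 0.526). Of the monocyte chemoattractant chemokine genes, Ccl12 was higher (163 against 104 CPM in SILT, 83.3 against 27.7 CPM in lamina propria) and Ccl8 lower (169 against 332 CPM, and 99.9 against 150.1 CPM). Of 14 genes of CX3CR1-high resident macrophages, 1 was higher and 0 lower in SILT, and 4 were higher and 2 lower in lamina propria, with Tmem119 higher in both (1.71-fold and 2.49-fold). Of 12 transcription factors, 3 were higher and 0 lower in SILT and 4 higher and 3 lower in lamina propria. Nr4a1, which nonclassical monocytes need, was higher in both tissues (2.24-fold and 2.32-fold), as were Runx3 (1.63-fold and 2.80-fold) and Cebpa (1.90-fold and 1.69-fold).

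The protease and integrin list around fractalkine gave few calls. Of 6 measured members of 7 (ADAM proteases that shed fractalkine, cathepsin S and integrin subunits), 0 were called in monocyte-like or macrophage-like cells of SILT. In lamina propria Itgb1 was lower in Csf2-/- cells of both classes (ratio 0.627 in monocyte-like and 0.590 in macrophage-like cells), and Itga4 in monocyte-like cells (0.646). Of the classical monocyte genes, 4 of 5 measured were higher in macrophage-like cells of Csf2-/- SILT, Fn1, Ly6c2 and Plac8 among them. The Ccl4 Ccl3 cluster of that comparison had 7 of 8 higher, where 9.45% of 8183 genes were called higher and 3.14% lower. The summed monocyte markers of macrophage-like cells were 227 CPM in Csf2-/- SILT against 197 in Csf2+/+ SILT, and 227 CPM in Csf2-/- lamina propria against 187 in Csf2+/+ lamina propria. In the Ccl4 Ccl3 cluster they were 1142 against 639 CPM in SILT and 498 against 351 CPM in lamina propria. Their part in these counts was not tested. In lamina propria the Ccl4 Ccl3 cluster had 3 of 6 classical genes higher, beside 3.93% of 8989 genes called higher and 5.54% lower.

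Of the endothelial adhesion and chemokine genes, most were not called in endothelial-like cells. In SILT 9.11% of 11179 genes were called higher in Csf2-/- cells and 3.86% lower, and in lamina propria 4.41% of 10755 genes higher and 4.94% lower. Of 8 measured members, 0 were higher and 2 lower in SILT, and 3 higher and 0 lower in lamina propria. The difference between tissues was not tested. Vcam1, whose product binds leukocyte integrins, was 2.73 CPM in Csf2-/- SILT against 7.87 in Csf2+/+ SILT and 22.6 CPM in Csf2-/- lamina propria against 4.01 in Csf2+/+ lamina propria. Icam1 was 25.1 CPM in Csf2-/- lamina propria against 11.8 in Csf2+/+ lamina propria (2.13-fold).

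Between tissues, the lists gave most calls in the Csf2+/+ comparison, in which the median shifted. In monocyte-like cells 2.65% of 8362 genes were called higher and 3.81% lower in SILT of Csf2-/- mice, and 6.34% of 7970 higher and 19.1% lower in SILT of Csf2+/+ mice. Of the 12 transcription factors, 0 were called in Csf2-/- cells and 6 were lower in Csf2+/+ SILT, with Zeb2 at a ratio of 0.488 and Maf at 0.512. In macrophage-like cells 2.24% of 9712 genes were called higher and 4.30% lower in Csf2-/- SILT, and 7.61% of 11490 higher and 21.4% lower in Csf2+/+ SILT. There Ccl12 was higher in SILT in both genotypes (1.95-fold in Csf2-/- and 3.77-fold in Csf2+/+ cells), and Ccl8 too (1.69-fold and 2.21-fold). In the Ccl4 Ccl3 cluster, where 3.26% of 7933 genes were called higher and 5.76% lower in Csf2-/- SILT, and 6.51% of 9174 higher and 23.2% lower in Csf2+/+ SILT, Ccl7 was higher in SILT in both genotypes (2.61-fold and 1.64-fold), as was Plac8 (4.50-fold and 3.16-fold). Endothelial-like cells had 2.12% of 9533 genes called higher and 2.02% lower in Csf2-/- SILT, and 5.47% of 11652 higher and 7.48% lower in Csf2+/+ SILT. Of the 8 measured adhesion and chemokine genes there, 0 were higher and 3 lower in Csf2-/- SILT, and 4 were higher and 0 lower in Csf2+/+ SILT, with Vcam1 at ratios of 0.121 and 1.96.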

How the data were processed

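Single-cell 3′ libraries of CD11b-selected colon cells (10x 3′ v2 protocol, per the labels' protocols) were deposited as matrices of UMI counts per gene and barcode, which the authors made with Cell Ranger 2.1.1 and mm10 per the submitters' processing notes; the file headers name Cell Ranger 6.0.0. Cells needed 200 detected genes and no more than 10% mitochondrial UMIs, and Scrublet doublets were removed. Depth is given in the report, and intervals cover counting error only, for reads counted by UMI.

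The cells were clustered with scanpy 1.11.5 and leidenalg 0.10.2 (2000 variable genes without the 3 members, 30 components, 15 neighbours, resolution 1) into 30 clusters, named only from marker lists (3 or more markers). A rule that left the Ccl4 Ccl3 cluster unnamed was added after seeing the clusters. Class levels were summed UMIs with exact Poisson 95% intervals, shares had Clopper-Pearson intervals and ratios conditional binomial ones (scipy 1.17.1). Cells were thinned to 2000 UMIs. Named genes were the 3 members, of each list at most the 3 called genes with the largest ratio, and the 5 genes most like each member. Interval code was tested on simulated data. With 1 library per group no test was made. The alternatives were other filters, resolutions, thinning depths and class borders, and TMM (edgeR 4.0.16) or DESeq2 1.42.0 size factors. The members and lists were chosen with earlier results of these data known. Some list genes are not reported here.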

Additional observations from a re-analysis of the deposited data

How the results depend on the processing

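No paired analysis was possible because the groups share no replicate numbers: each is 1 library, and no replicate was left out. Of 224 alternative values of the main comparisons, 175 moved by less than counting error, 40 moved further and 9 changed sign; of 240 other values the numbers were 159, 78 and 3. All values here are log2 ratios, except the percentages at the end. Keeping doublets, leaving mitochondrial and ribosomal genes out of CPM and leaving out the highest cell moved none of them. The cause was not tested where a value changed, and the class border sets which cells enter it.

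Cx3cr1 in cDC2-like cells, Csf2-/- over Csf2+/+ in SILT (1.41), was 1.01 with the stricter cell filter (500 genes, 5% mitochondrial UMIs) and 1.01 with the 3 genes among the variable genes. In lamina propria (0.89) it was 0.53 with that filter, 0.60 at resolution 2 and 0.44 with the 3 genes. For SILT over lamina propria in Csf2-/- cells (0.01) it was 0.29 among cells with fewer than 2 C1q UMIs.

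Ccr2 in monocyte-like cells, Csf2-/- over Csf2+/+ in SILT (-0.12), was 0.05 at resolution 0.5, -0.24 with DESeq2 factors, -0.22 divided at 2 C1q UMIs, 0.15 in the Adgre4 cluster alone and 0.02 with the Ccl4 Ccl3 cluster. In lamina propria (-0.15) it was -0.27 with the stricter filter and 1.09 in the Adgre4 cluster. SILT over lamina propria in Csf2-/- cells (-0.34) was -0.20 at resolution 0.5 and -0.21 with the Ccl4 Ccl3 cluster. In Csf2+/+ cells (-0.37) it was -0.19 with TMM factors, -0.18 with DESeq2 factors and 0.54 in the Adgre4 cluster.

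Cx3cr1 in monocyte-like cells, Csf2-/- over Csf2+/+ in SILT (0.45), was -0.08 in the Adgre4 cluster. In lamina propria (0.20) it was -0.11 with the stricter filter and -0.33 in the Adgre4 cluster. In macrophage-like cells of SILT (0.47) it was 0.69 as a mean over cells, 0.34 in the Lyve1 cluster and 0.36 in the Mmp13 cluster. In lamina propria (0.55) it was 0.64 with DESeq2 factors, 0.69 as a mean over cells and 0.00 in the Mmp13 cluster. SILT over lamina propria in Csf2-/- macrophage-like cells (0.04) was -0.08 with the stricter filter, -0.11 with the 3 genes, -0.08 divided at 2 C1q UMIs, -0.26 in the Lyve1 cluster, -0.08 in the Mmp13 cluster and -0.16 with the Ccl4 Ccl3 cluster. In Csf2+/+ cells (0.12) it was 0.05 with the stricter filter, -0.05 with the 3 genes, 0.29 with TMM and 0.33 with DESeq2 factors, 0.05 as a mean over cells, 0.05 divided at 2 C1q UMIs, -0.12 in the Lyve1 cluster, -0.44 in the Mmp13 cluster and -0.09 with the Ccl4 Ccl3 cluster. Cx3cl1 of endothelial-like cells, SILT over lamina propria in Csf2+/+ (-0.33), was -0.01 in the Sema3g cluster.

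The share of monocyte-like cells with both receptor genes (33.0%) was 26.0% with the stricter filter, 15.9% thinned to 1000 UMIs, 64.6% thinned to 5000 UMIs and 47.6% for at least 2 UMIs of each without thinning. In macrophage-like cells (2.88%) it was 5.09%, 0.82%, 8.27% and 7.38% under those settings, and 7.78% with the 3 genes among the variable genes. Depth limits such shares.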
